A study of Homo sapiens with 6 samples.

Results

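The genes described here are single-copy members of the early-embryo programme that the transcription factor DUX4 switches on: ZSCAN4, LEUTX, KHDC1L, CCNA1, KDM4E, SLC34A2, DUXA, TPRX1 and ZNF280A, together with DUX4 itself. They were chosen by symbol, with earlier results of the same comparison known, so their own BMH-21 and control values are given as a description and carry no test. Of the 10 symbols, 9 have a row among the 25662 genes used here. DUX4 has no row under its symbol and is not analysed here. RNA was sequenced from A375, an established human melanoma cell line that carries an activated BRAF kinase. The BMH-21 group holds 3 libraries of cells given 1 µM BMH-21 for 24 hours. The control group holds 3 libraries of cells given the solvent DMSO, with time 0 in their titles, so whether they too were kept for 24 hours is not known. BMH-21 is a compound that binds DNA and inhibits RNA polymerase I, which transcribes the ribosomal RNA genes. All 6 libraries come from this cell line. The submitters describe the 3 libraries of a group as biological replicates.

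DUX4 is a transcription factor with a pair of homeodomains, encoded in each unit of the D4Z4 repeat near the end of chromosome 4. It is active for a short time in the cleavage-stage embryo, at the start of transcription from the embryo's own genome, and in the adult it is known in testis. Most other tissues keep the repeat silent through DNA methylation and repressive histone marks, and loss of that silencing in muscle is the basis of facioscapulohumeral dystrophy. DUX4 binds near its target genes, many of them in repeats of retroviral origin, and the members here are among the genes it is known to activate.

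The values are TPM, a relative unit that divides a gene's estimated reads by its length and scales each library to a common total, so that levels can be compared between genes. TPM keeps no read totals, so absolute depth is unknown. A relative depth was taken from the low end of TPM times length over 1744 genes with a single annotated transcript. Set to 1 in control replicate 1, it lay between 1.395 and 1.69 in the BMH-21 libraries and at 1.17 or less in the controls. Between 19326 and 19867 genes were above 0 TPM in BMH-21 libraries and between 18268 and 18767 in control libraries. Of 10 melanocyte markers, SOX10, a transcription factor of the lineage, stood at 654 ± 52.4 TPM in BMH-21 cells and 541 ± 126 TPM in control cells (SD, n = 3 each), while MLANA, a melanosome protein, was listed at 0 in all 6 libraries. Throughout, ± is the standard deviation over 3 libraries for TPM and the standard error for a log2 difference.

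After BMH-21, 8 of the 9 members were higher in every treated library than in any control library. Such complete separation with BMH-21 higher was found in 24.6% of the 22944 genes above 0 TPM in any library, and in 12.3% of the 10463 of them with a mean TPM under 1. The opposite separation was found in 12.1% and 5.9% of the same genes. Since the members were chosen on this contrast, nothing is read from that count. The levels stayed low. Together the 9 members came to 10.2, 9.31 and 11.03 TPM in BMH-21 replicates 1 to 3, against 1.90, 1.62 and 1.95 TPM in control replicates 1 to 3. Most of the control sum was CCNA1. Without CCNA1 the sums were 6.24, 5.94 and 6.47 TPM with BMH-21 and 0.302, 0.0948 and 0.0594 TPM in controls. The median difference over the 9 members on the log2(TPM + 1) scale was 0.58, beside 0.19 over the 12481 genes with a mean of at least 1 TPM, a floor that only CCNA1 and KHDC1L among the members reached. KHDC1L reached it through its BMH-21 values alone. In bulk RNA, a change in the number of cells with a transcript and a change in its amount per cell cannot be told apart.

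**Figure D1:**
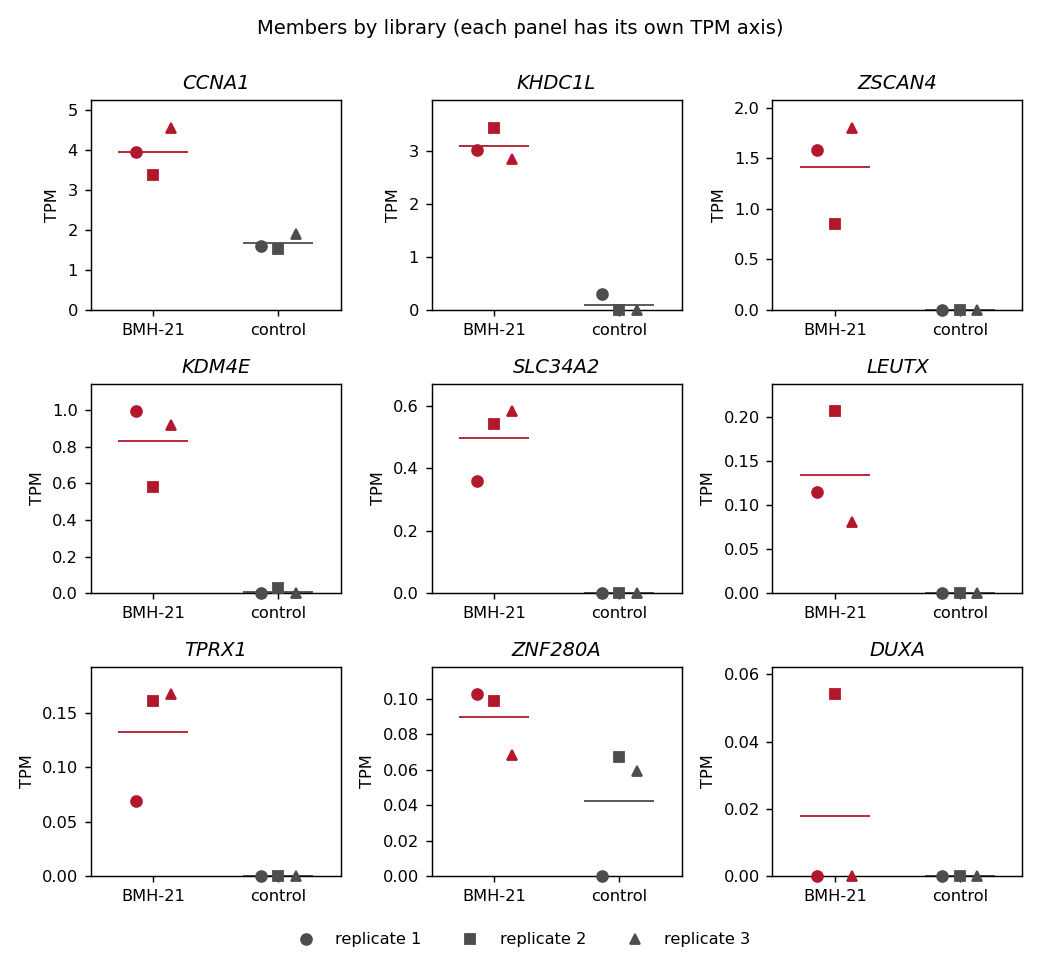
TPM of the 9 members in each library, 1 panel per gene with its own linear axis starting at 0, BMH-21 at the left and control at the right of each panel; symbols mark replicates 1 to 3 and the line is the group mean. In 8 panels all BMH-21 points lie above all control points, and in the DUXA panel only BMH-21 replicate 2, at 0.0541 TPM, is above 0.

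Among the DNA-binding members, ZSCAN4 (chromosome 19, 57651476 to 57679152 in GRCh38.p14) encodes a protein with a SCAN domain and zinc fingers, and its mouse relatives mark the cleavage-stage state and act on telomeres. ZSCAN4 stood at 1.58, 0.846 and 1.80 TPM in BMH-21 replicates 1 to 3 and was listed at 0 in the 3 control libraries. BMH-21 replicate 2 was the lowest treated library, and the groups did not overlap. ZNF280A (chromosome 22, 22513736 to 22520270), a zinc finger gene whose role is little known, stood at 0.103, 0.0988 and 0.0683 TPM with BMH-21 and at 0, 0.0674 and 0.0594 TPM in controls. The lowest BMH-21 library of ZNF280A and its highest control library thus differed by little, although the groups did not overlap.

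The homeobox members reached at most 0.207 TPM in any library. LEUTX (chromosome 19, 39776453 to 39786291), a PRD-like homeobox gene of the cleavage-stage embryo, stood at 0.114, 0.207 and 0.0807 TPM with BMH-21 and was listed at 0 in the 3 controls. TPRX1 (chromosome 19, 47801232 to 47819051), another PRD-like homeobox gene of that stage, stood at 0.0689, 0.160 and 0.167 TPM with BMH-21 and was also listed at 0 in the 3 controls. DUXA (chromosome 19, 57154021 to 57167485), a homeobox relative of DUX4 and one of its targets, was listed at 0 in BMH-21 replicates 1 and 3 and in every control, and at 0.0541 TPM in BMH-21 replicate 2. For DUXA the groups therefore overlap at 0.

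The remaining members encode proteins that act outside sequence-specific DNA binding. KHDC1L (chromosome 6, 73223544 to 73225496) belongs to a family with a KH domain, a fold that binds RNA in many proteins. KHDC1L stood at 3.02, 3.45 and 2.84 TPM with BMH-21 and at 0.302, 0 and 0 TPM in controls, with no overlap. KDM4E (chromosome 11, 95025258 to 95027596) encodes a histone demethylase of the KDM4 family. KDM4E stood at 0.995, 0.579 and 0.920 TPM with BMH-21 and at 0, 0.0274 and 0 TPM in controls, with the lowest treated library far above the control that was not at 0. SLC34A2 (chromosome 4, 25655851 to 25678748), a sodium-dependent phosphate transporter best known from alveolar type II cells of the lung, stood at 0.361, 0.544 and 0.585 TPM with BMH-21 and was listed at 0 in the 3 controls.

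CCNA1 was the exception in controls. CCNA1 (chromosome 13, 36431517 to 36442870) encodes cyclin A1, a cyclin of male meiosis. CCNA1 stood at 3.95, 3.37 and 4.56 TPM with BMH-21 and at 1.59, 1.52 and 1.89 TPM in controls, a ratio of means of 2.37. CCNA1 was the only member above 0 in all 3 control libraries, and its groups did not overlap.

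Promoter sequence was not read when the members were chosen, but they were listed as DUX4 targets, which is not independent of DUX4 motifs. RefSeq promoter windows, 250 bases before to 50 bases after a start, were at hand for 7 of the 9 members, with 2 windows each for SLC34A2 and LEUTX. KDM4E and TPRX1 had no window. The windows of the most abundant members are shown first, in GRCh38.p14 and 5′ to 3′ on the strand of the gene, because they differ in their CG dinucleotides, which are the sites of DNA methylation and are in capitals. The window of ZSCAN4 is chr19:57668685-57668984 on the plus strand, that of KHDC1L is chr6:73225447-73225746 on the minus strand and that of CCNA1 is chr13:36431705-36432004 on the plus strand.
ZSCAN4: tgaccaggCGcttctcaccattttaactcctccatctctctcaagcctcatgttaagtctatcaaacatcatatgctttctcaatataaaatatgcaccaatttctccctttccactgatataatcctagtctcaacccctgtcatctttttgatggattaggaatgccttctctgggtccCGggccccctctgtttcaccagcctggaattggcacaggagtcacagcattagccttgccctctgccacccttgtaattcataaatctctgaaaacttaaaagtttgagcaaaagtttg
KHDC1L: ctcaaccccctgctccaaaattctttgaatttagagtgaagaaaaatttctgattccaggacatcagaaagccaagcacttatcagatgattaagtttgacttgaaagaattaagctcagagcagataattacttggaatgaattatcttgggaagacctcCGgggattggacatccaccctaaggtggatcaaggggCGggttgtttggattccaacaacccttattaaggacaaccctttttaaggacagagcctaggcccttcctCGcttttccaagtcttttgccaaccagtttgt
CCNA1: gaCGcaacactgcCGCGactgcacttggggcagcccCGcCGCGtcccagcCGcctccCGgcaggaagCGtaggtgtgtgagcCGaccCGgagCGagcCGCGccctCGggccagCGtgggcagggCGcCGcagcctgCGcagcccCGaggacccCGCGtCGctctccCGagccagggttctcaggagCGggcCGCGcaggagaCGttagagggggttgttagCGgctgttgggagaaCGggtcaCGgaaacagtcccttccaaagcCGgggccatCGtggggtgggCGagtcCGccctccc
The ZSCAN4 window holds 2 CG dinucleotides and the KHDC1L window 3, while the CCNA1 window holds 35.

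CCNA1, the only member above 0 in all 3 controls, thus had a CG-rich window, with 72.7% G and C. KHDC1L and ZNF280A, which were above 0 in 1 and 2 controls, had CG-poor windows. As many CG dinucleotides as in the CCNA1 window, or more, occurred in 14.1% of all 35116 windows. ZSCAN4 and KHDC1L, with 43.3% and 42.7% G and C, lay at the other end, and 89.0% and 81.8% of all windows held as many CG dinucleotides as theirs or more. LEUTX (5 and 4 in its 2 windows), ZNF280A (5) and DUXA (6) were also poor in CG, beside a median of 14 over all windows. SLC34A2 had both kinds: its first window (chr4:25655601-25655900) held 38 and its second (chr4:25656214-25656513) held 7. Which of the 2 starts gave the SLC34A2 reads cannot be read from a value per gene.

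**Figure D2:**
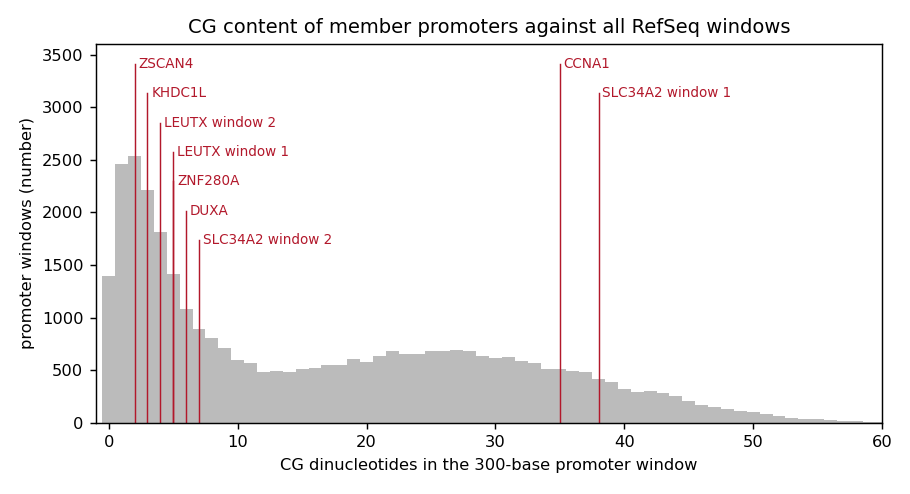
Number of CG dinucleotides in promoter windows of 300 bases, as a histogram over all 35116 RefSeq windows, with lines at the 9 windows of 7 members. CCNA1 (35) and the first SLC34A2 window (38) lie in the CG-rich part, and the other 7 windows hold 7 or fewer.

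A match to the DUX4 motif, the sequence that its homeodomains are known to prefer, was searched on both strands with the bases in its middle left free. Only the second window of LEUTX, chr19:39778604-39778903 on the plus strand, held a match among the 9 member windows, and it is shown for that reason with the match in capitals.
LEUTX: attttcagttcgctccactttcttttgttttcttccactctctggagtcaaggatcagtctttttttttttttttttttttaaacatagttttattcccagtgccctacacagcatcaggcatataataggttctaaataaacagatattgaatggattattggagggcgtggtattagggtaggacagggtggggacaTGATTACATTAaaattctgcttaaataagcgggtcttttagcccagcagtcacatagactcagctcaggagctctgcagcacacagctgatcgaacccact
The capitals read TAATGTAATCA on the opposite strand and end 40 bases before the LEUTX start of that window.

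Over all 35116 windows, 312 or 0.888% held a match, beside 1 of 9 member windows and 18 of 48 windows (37.5%) of the multicopy gene families that DUX4 also activates, which share much of their sequence with each other and so are not independent. Members and families were both listed as known DUX4 targets, so these shares are a description and nothing is read from them. The windows of ZSCAN4, KHDC1L, CCNA1, SLC34A2, DUXA and ZNF280A hold no match, which says only that the letters searched are not in these windows.

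Ordered by their mean in BMH-21 libraries, the members ran from CCNA1 (3.96 ± 0.595 TPM) and KHDC1L (3.10 ± 0.310 TPM) through ZSCAN4 (1.41 ± 0.4999 TPM), KDM4E (0.831 ± 0.221 TPM) and SLC34A2 (0.497 ± 0.119 TPM) to LEUTX (0.134 ± 0.0653 TPM), TPRX1 (0.132 ± 0.0548 TPM), ZNF280A (0.0899 ± 0.0188 TPM) and DUXA (n = 3 each). Neighbours in this order whose BMH-21 ranges overlapped were CCNA1 with KHDC1L, ZSCAN4 with KDM4E, KDM4E with SLC34A2, LEUTX with TPRX1, and TPRX1 with ZNF280A. The ranges of KHDC1L and ZSCAN4, of SLC34A2 and LEUTX, and of ZNF280A and DUXA did not overlap. The BMH-21 libraries had no common order across members. Leaving out DUXA, replicate 2 was the lowest treated library for 3 of 8 members (ZSCAN4, KDM4E and CCNA1) and the highest for 2 of 8 (KHDC1L and LEUTX).

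How far these levels stood above the low end of TPM was read from genes with a single transcript. The transcripts of these genes were within 20% of each member's coding transcript length. The low end was the 5th percentile of their TPM above 0 in each library. ZSCAN4 was between 36.1 and 86.2 times that level in BMH-21 libraries, CCNA1 between 127 and 196 times, KHDC1L between 37.1 and 46.3 times, KDM4E between 25.6 and 55.2 times and SLC34A2 between 17.9 and 41.9 times. These 5 members were thus well clear of the low end. TPRX1 was between 3.54 and 7.30 times, ZNF280A between 3.09 and 5.50 times and LEUTX between 1.22 and 2.82 times the low end in BMH-21 libraries. The value of DUXA in BMH-21 replicate 2 was 1.16 times the low end. LEUTX, TPRX1, ZNF280A and DUXA were thus within 7.30 times the low end. A control value of 0 for them says only that the transcript was not detectable at this depth. ZNF280A in control replicates 2 and 3 was 2.437 and 2.135 times the low end of those libraries. The low end itself was lower in the BMH-21 libraries. For the length of ZSCAN4 it was between 0.0183 and 0.0235 TPM there and between 0.0240 and 0.0305 TPM in controls. The relative depth above was also taken from the low end of TPM, so it is not a separate measure.

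**Figure D3:**
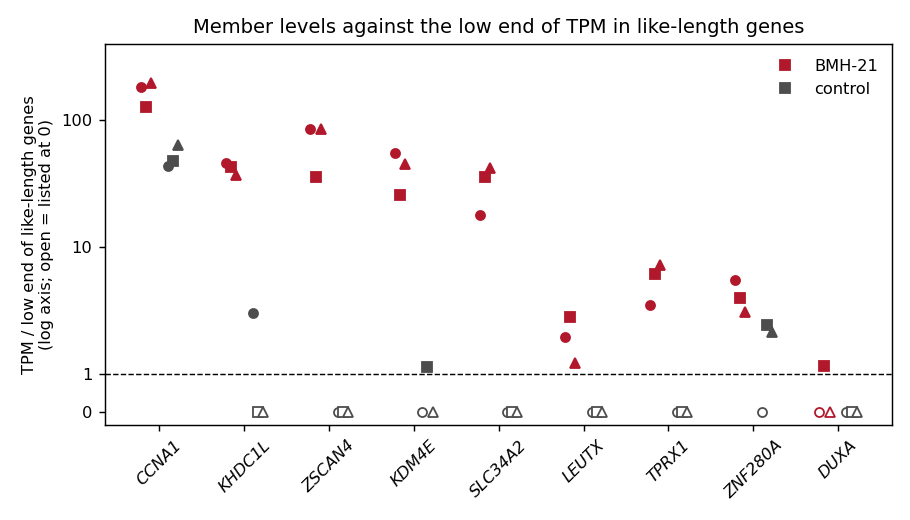
TPM of each member divided by the low end of TPM, the 5th percentile of values above 0 among single-transcript genes of like length, in each library (log axis; open symbols are values listed at 0; symbols mark replicates 1 to 3; BMH-21 left of control for each gene). CCNA1, KHDC1L, ZSCAN4, KDM4E and SLC34A2 lie at 17.9 times or more in all BMH-21 libraries, while LEUTX and DUXA reach at most 2.82 and 1.16 times, close to the dashed line at 1.

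Of the 5 members listed at 0 in all 3 controls, 4 were above 0 in all 3 BMH-21 libraries, namely ZSCAN4, LEUTX, SLC34A2 and TPRX1. Among all 2231 genes that were at 0 in the 3 controls and above 0 somewhere, this held for 243, or 10.9%. The opposite pattern, 0 in all BMH-21 libraries and above 0 in all controls, held for 42 of 1066 genes, or 3.94%. The greater relative depth of the BMH-21 libraries moves in the same direction, and its part in these counts was not tested. Ranked by BMH-21 mean among those 243 genes, ZSCAN4 was 22nd, SLC34A2 39th, LEUTX 113th and TPRX1 114th, and the median of the 243 was 0.121 TPM.

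The word single-copy was checked against annotated transcripts. The transcripts of each gene were cut into all their 31-base words, and the share of words also present in transcripts of other genes was counted. No word of CCNA1 or LEUTX occurred elsewhere, and the share was 0.975% for SLC34A2, 2.50% for ZSCAN4, 9.21% for ZNF280A, 9.32% for DUXA, 14.5% for TPRX1, 23.6% for KDM4E and 47.8% for KHDC1L. Of 923 words of KHDC1L, 421 also occurred in the annotated transcript AL365232.1, not analysed here, and so its level is less certain than those of CCNA1, ZSCAN4 and SLC34A2. KDM4E shared 504 words with KDM4F, which stood at 0.182, 0.273 and 0.421 TPM in BMH-21 libraries and was listed at 0 in the controls. ZNF280A shared 195 words with ZNF280B, listed at 0 in the BMH-21 libraries and at 0.0517, 0 and 0 TPM in controls. DUXA shared 32 words with DUXAP10, an abundant pseudogene at 38.4, 44.5 and 38.45 TPM with BMH-21 and 22.9, 16.9 and 23.5 TPM in controls. TPRX1 shared 31 words with MRPL3, which lay between 59.2 and 81.05 TPM with BMH-21 and between 53.8 and 79.1 TPM in controls. The part of reads from these partners in the low values of DUXA and TPRX1 was not tested. DUX4, by contrast, shared 70.7% of its words, mainly with copies of the D4Z4 repeat.

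The multicopy families that DUX4 also activates differ from the members in this respect. Over 50 genes of these families with an annotated transcript, the median share of words found elsewhere was 83.3% (range 11.2% to 100%), against 9.21% over the 9 members (range 0% to 47.8%). Their median BMH-21 mean was 2.09 TPM over the 52 genes used here, against 0.497 TPM over the members. H3Y1, a histone gene of the programme, was the highest at 26.6 ± 2.88 TPM in BMH-21 cells and 0.186 ± 0.0771 TPM in control cells. MBD3L2, which encodes a protein that opposes the repressor complex NuRD, stood at 9.71, 9.65 and 11.6 TPM with BMH-21 and at 0.436, 0 and 0.147 TPM in controls. Of these 52 genes, 40 were higher in every BMH-21 library than in any control and 0 were lower, beside 24.6% and 12.1% of all genes above 0. No count of tested genes is given for them, since most reached a mean of 1 TPM through their BMH-21 values. This list, too, was drawn up with earlier results of the comparison known, and reads of its near-identical members may be split among them. The difference between the 2 sets of genes was not tested.

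**Figure D4:**
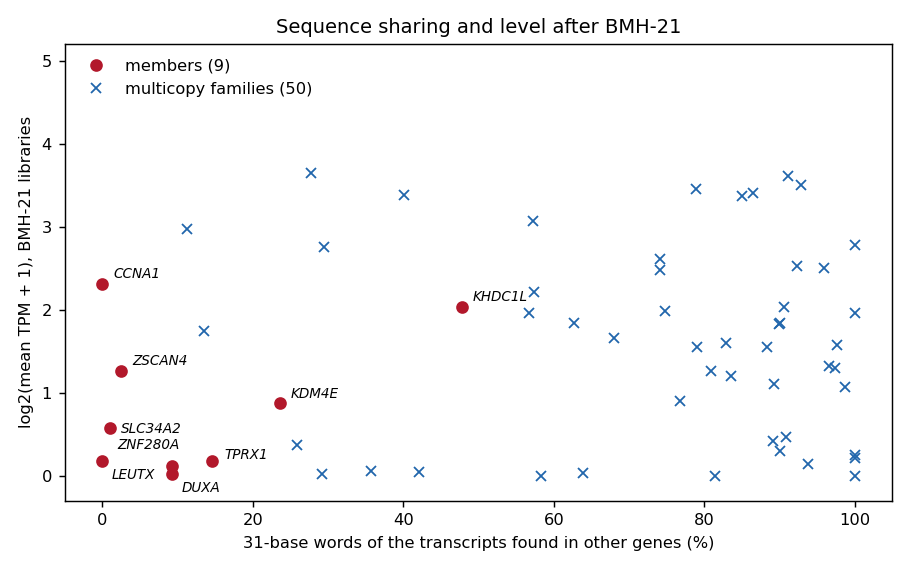
Share of 31-base words found in transcripts of other genes (horizontal axis, %) against log2(mean TPM + 1) in BMH-21 libraries (vertical axis) for the 9 members (circles, named) and 50 multicopy genes (crosses). All members lie at or below 47.8% shared words and at or below a mean of 3.96 TPM, while the multicopy genes spread over both axes with a median of 83.3%.

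The genes next to the members were taken as a further reading of the same loci, by position and without regard to their values. The 9 members had 19 nearest or overlapping genes among those used here, of which 3 were listed at 0 throughout. All BMH-21 libraries were above all controls for 7 of them and below all controls for 3, beside 24.6% and 12.1% of all genes above 0. SRSF8BP, a pseudogene 9833 bases from KDM4E, stood at 0.871, 0.572 and 0.917 TPM with BMH-21 and was listed at 0 in controls, levels close to those of KDM4E in the same libraries. KDM4D, the demethylase gene on the other side of KDM4E, stood at 0.579 ± 0.157 TPM with BMH-21 and 0.970 ± 0.119 TPM in controls. The neighbours of KDM4E were thus higher on one side and lower on the other.

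Other members also had a neighbour that was listed at 0 in all controls. TPRG1LP1, a pseudogene inside the annotated ZSCAN4 locus, stood at 0.265, 0.670 and 0.644 TPM with BMH-21. KHDC1P1, a pseudogene 13477 bases from KHDC1L, stood at 0.430, 0.263 and 0.245 TPM with BMH-21, while KHDC1 on the other side was listed at 0 in all 6 libraries. USP29, 22095 bases from DUXA, stood at 0.0435, 0.189 and 0.0161 TPM with BMH-21. Neighbours expressed in controls were called in both directions. ZNF211 beside ZSCAN4 rose (4.54 ± 0.573 TPM with BMH-21 and 2.01 ± 0.382 TPM in controls, limma adjusted p = 0.00464), ZNF551 on the other side was not called (adjusted p = 0.327), and PRAME beside ZNF280A stood at 109 ± 6.21 TPM with BMH-21 and 111 ± 14.4 TPM in controls (adjusted p = 0.911). DYRK1B beside LEUTX rose (23.6 ± 1.90 TPM with BMH-21 and 12.3 ± 1.81 TPM in controls, adjusted p = 0.00207). ZNF264 beside DUXA fell (4.93 ± 0.461 TPM with BMH-21 and 7.20 ± 0.243 TPM in controls, adjusted p = 0.0299). SPART beside CCNA1 rose (limma adjusted p = 0.0398), and SERTM1 on the other side was lower in every BMH-21 library than in any control. ANAPC4 and SEL1L3 beside SLC34A2 were not called (limma adjusted p = 0.242 and 0.925). CLC beside LEUTX and RPL23AP80 beside TPRX1 were listed at 0 in all 6 libraries.

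The genes whose levels over the 6 libraries lay nearest to those of ZSCAN4, by Euclidean distance of log2(TPM + 1), were RFPL4AL1 (0.250), HNRNPCL2 (0.298), FRG2C (0.300), H3Y2 (0.317) and PINCR (0.347). Distance over 6 libraries mainly reflects the difference between the groups. RFPL4AL1 stood at 1.58, 0.878 and 1.46 TPM with BMH-21 and at 0, 0 and 0.119 TPM in controls. FRG2C, of a family named for the dystrophy region near the D4Z4 repeat, stood at 1.51, 1.10 and 2.29 TPM with BMH-21, and like HNRNPCL2 and H3Y2 it was listed at 0 in the 3 controls. PINCR, a long non-coding RNA, stood at 1.49, 1.01 and 1.25 TPM with BMH-21 and at 0, 0 and 0.0413 TPM in controls.

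Rows of DUX4-like sequences were looked at because DUX4 itself has none, a choice made after their values were seen. Of 12 rows whose symbols begin with DUX4L, 5 were higher in every BMH-21 library than in any control and 0 were lower, beside 24.6% and 12.1% of all genes above 0, and 12.3% and 5.9% of those with a mean TPM under 1. The row that shares most with DUX4 transcripts, DUX4L9 with 902 words, stood at 0, 0.0310 and 0 TPM with BMH-21 and at 0 in controls. DBET, a long non-coding RNA that shares 738 words, stood at 0.0179, 0.0230 and 0 TPM with BMH-21 and at 0 in controls. DUX4L26, which shares 308 words with DUX4 transcripts, stood at 1.63, 1.30 and 1.68 TPM with BMH-21 and at 0.402, 0.106 and 0.0687 TPM in controls. DUX4L50, which shares 7 words, stood at 3.45, 3.26 and 4.34 TPM with BMH-21 and at 1.34, 0.608 and 1.27 TPM in controls. These rows are separate loci and give no level for DUX4.

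Paralogs of the members were read in the same fit, in which 36.2% of the 12481 tested genes were called (limma, Benjamini-Hochberg adjusted p under 0.05), 23.3% higher and 12.9% lower. Of 18 listed paralogs, 16 have a row, 5 reached a mean of 1 TPM, 3 of these rose (60%) and 1 fell (20%). By separation, 5 of the 16 were higher in every BMH-21 library than in any control and 2 were lower. These counts stand beside 24.6% and 12.1% of all genes above 0 in any library, while 3 of the 16 were listed at 0 throughout. CCNA2, the cyclin A of dividing somatic cells, fell to 0.362 ± 0.338 TPM in BMH-21 cells, against 11.9 ± 0.505 TPM in control cells (log2 difference -3.27 ± 0.20, adjusted p = 1.8e-05), while CCNA1 was higher. KDM4B (23.8 ± 2.58 TPM with BMH-21 and 9.03 ± 1.38 TPM in controls, adjusted p = 0.000406), KDM4A and KDM4C rose. Among relatives of the homeobox members, ARGFX was listed at 0 in all libraries and DUXB was above 0 only in BMH-21 replicate 3. TPRX2 stood at 0.316, 0 and 0.0440 TPM with BMH-21 and was listed at 0 in controls. Its mean with BMH-21 was 0.120 TPM, beside 0.132 TPM for TPRX1. Whether TPRX2P, which shares words with TPRX1, is the gene listed as TPRX2 was not checked, and reads may be split between them. In the wider list of 14 other PRD-like homeobox genes, 9 have a row, 3 were tested, 0 rose and 1, GSC, fell (33.3%). GSC and CCNA2 each reached a mean of 1 TPM through their control values alone.

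Marker lists were read for other cell identities, and their counts stand beside the shares of all tested genes, 23.3% called higher and 12.9% called lower. Among 20 pluripotency and later embryo genes, 18 have a row and 4 were tested, and all 4, namely ZFP42, KLF4, KLF5 and SOX2, rose. By separation 4 of the 18 were higher and 1, SALL4, was lower, beside 24.6% and 12.1% of all genes above 0. ZFP42 stood at 30.2 ± 1.51 TPM with BMH-21 and 16.3 ± 1.21 TPM in controls (adjusted p = 0.00074), and KLF4 at 8.37 ± 0.514 TPM with BMH-21 and 1.76 ± 0.469 TPM in controls (adjusted p = 0.000181). LIN28A, DPPA4, UTF1 and TDGF1 were listed at 0 in all libraries, POU5F1 was above 0 in all 6 (means of 0.126 TPM with BMH-21 and 0.131 TPM in controls), and NANOG was above 0 only in BMH-21 replicate 2, at 0.120 TPM. Germ cell markers, read because CCNA1 is a germ cell gene, summed to between 12.2 and 16.7 TPM with BMH-21 and between 14.1 and 16.4 TPM in controls over 16 of 25 genes, and DDX4, STRA8, BOLL, ZP2 and NOBOX were listed at 0. Of 2 tested, ZP3 rose (50%). Alveolar type II markers, read because of SLC34A2, summed to between 27.2 and 31.1 TPM with BMH-21 and between 28.8 and 43.8 TPM in controls over 10 genes. LPCAT1, a broadly expressed enzyme, made up most of that sum, and the surfactant genes SFTPA1, SFTPA2 and SFTPB were listed at 0. Among the melanocyte markers 5 were tested, PMEL and S100B rose (40%) and EDNRB fell (20%). Of 10 fibroblast and immune markers 9 have a row and 2 were tested. DCN rose (10.6 ± 1.37 TPM with BMH-21 and 0.597 ± 0.264 TPM in controls) and CD68 fell, 50% each way. DCN reached a mean of 1 TPM through its BMH-21 values alone, so nothing is read from that share. All 15 housekeeping genes were above 0 in every library, with 3 that rose (20%) and 5 that fell (33.3%).

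Factors known to repress the DUX4 repeat in other human cells, or the mouse counterpart of DUX4, were tested as pathway genes. Of 43 such factors, all have a row and 41 were tested: 11 fell (26.8%, beside 12.9% of all tested genes) and 4 rose (9.76%, beside 23.3% of all tested genes). Their median log2 difference was 0.01, beside 0.19 over all tested genes. Of the 11 that fell, 10 also fell under each of 13 alternative settings, the exception being CBX1. The 4 that rose were LRIF1, MBD1, DNMT3A and TASOR, of which only MBD1 rose under all 13.

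Of the 11 falls, 8 were in the groups for DNA methylation, CAF-1, and SUV39H with HP1. Both large subunits of CAF-1, the chaperone that loads histones onto new DNA, fell: CHAF1A stood at 4.15 ± 0.836 TPM with BMH-21 and 38.7 ± 5.46 TPM in controls (log2 difference -2.95 ± 0.17, adjusted p = 1.4e-05), and CHAF1B at 1.83 ± 0.111 TPM with BMH-21 and 11.7 ± 1.31 TPM in controls. Of 4 DNA methylation genes 3 fell. UHRF1, which brings the maintenance enzyme to new DNA, stood at 3.65 ± 0.872 TPM with BMH-21 and 28.95 ± 8.40 TPM in controls (log2 difference -2.66 ± 0.24), and the maintenance methyltransferase DNMT1 at 35.5 ± 2.32 TPM with BMH-21 and 68.5 ± 13.7 TPM in controls. The de novo methyltransferase DNMT3B stood at 0.434 ± 0.205 TPM with BMH-21 and 2.29 ± 0.406 TPM in controls. DNMT3B reached a mean of 1 TPM through its control values alone. The histone methyltransferases SUV39H1 (4.20 ± 0.429 TPM with BMH-21 and 26.3 ± 2.88 TPM in controls) and EZH2 (4.31 ± 0.944 TPM with BMH-21 and 13.4 ± 1.41 TPM in controls) fell as well. HMGB2, an architectural protein of dividing cells, had the largest fall of the list, to 4.79 ± 2.47 TPM with BMH-21, against 76.4 ± 6.38 TPM in controls (log2 difference -3.83 ± 0.29, adjusted p = 5.0e-05). CCNA2, a cyclin of dividing cells, was lower in the same libraries, as given above, and the part of cell division in these falls was not tested.

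Fewer genes of the other repressor complexes passed the test. Of 11 NuRD genes, RBBP7 fell and none rose. Of 8 genes around SETDB1, TRIM28 and the HUSH complex, MBD1 and TASOR rose and none fell. The TASOR call was lost under 7 of 13 alternative settings. None of the 3 tested genes of the repressor complex PRC1.6 was called. These counts stand beside 12.9% of all tested genes that fell and 23.3% that rose. TRIM28, the co-repressor with the highest level of the list, stood at 534 ± 57.3 TPM with BMH-21 and 646 ± 96.4 TPM in controls (adjusted p = 0.140). LRIF1, a partner of SMCHD1 at the repeat, had the largest rise, 4.64 ± 0.673 TPM with BMH-21 and 2.18 ± 0.804 TPM in controls (log2 difference 0.86 ± 0.22, adjusted p = 0.0188), a call lost without BMH-21 replicate 1 or 3 and with no filter on low values. SMCHD1 itself, the structural repressor whose loss de-represses the repeat in people, was too low to be tested, at 0.244, 0.157 and 1.26 TPM with BMH-21 and 0.305, 0.271 and 0.295 TPM in controls. BMH-21 replicate 3 was the high library, and the groups overlapped. Nucleolin, encoded by NCL and a repressor of the mouse counterpart of DUX4 with Trim28, stood at 123 ± 18.2 TPM with BMH-21 and 138 ± 28.5 TPM in controls (adjusted p = 0.514).

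**Figure D5:**
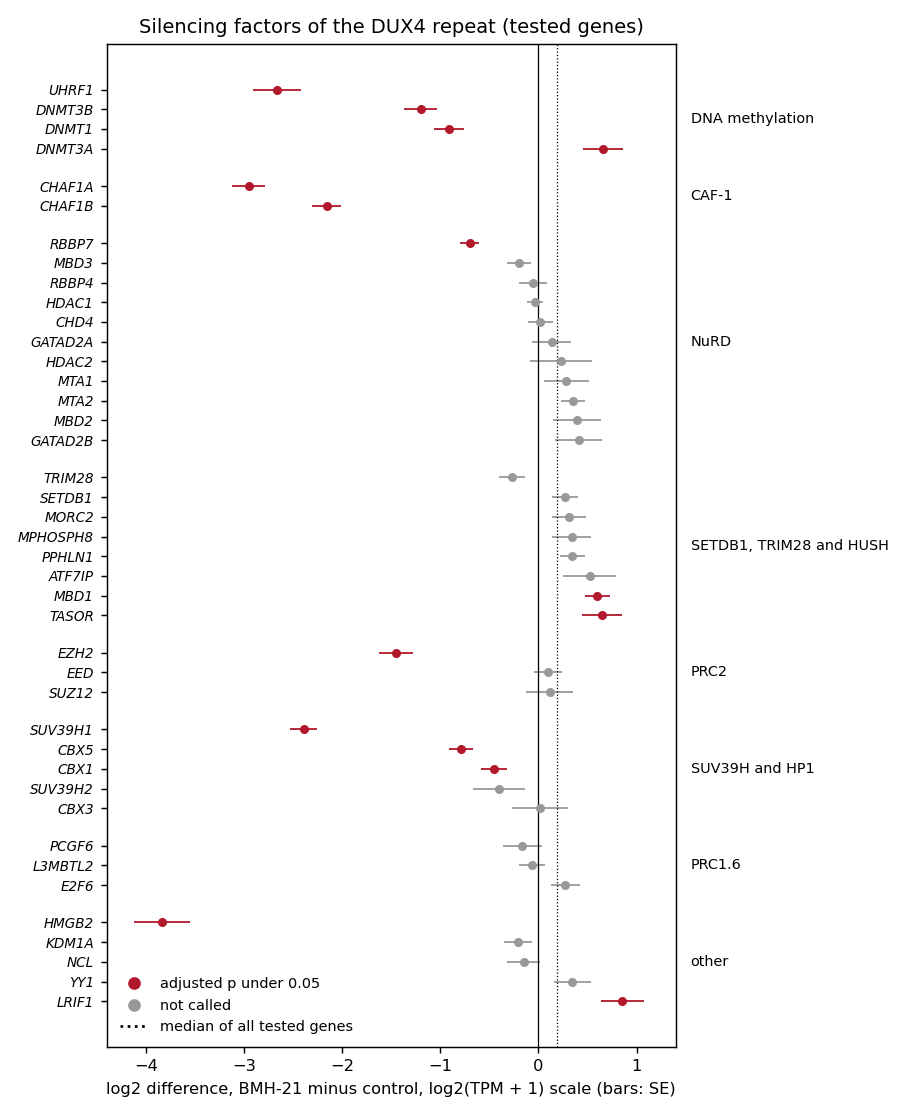
Log2 difference, BMH-21 minus control, on the log2(TPM + 1) scale for the 41 tested silencing factors, grouped by complex; bars are standard errors from limma over 3 libraries a group, and the dotted line is the median of all tested genes, 0.19. The called falls lie mainly in DNA methylation, CAF-1 and SUV39H with HP1, and RBBP7 is the only called NuRD gene of 11. Over all tested genes, 12.9% fell and 23.3% rose.

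Among 17 activators and cofactors of DUX4 or of its targets, 14 were tested, 2 rose (14.3%, beside 23.3%) and 3 fell (21.4%, beside 12.9%), with a median log2 difference of 0.13. Neither rise held under all 13 alternative settings. The rise of KDM4C (10.95 ± 0.256 TPM with BMH-21 and 7.73 ± 1.347 TPM in controls, limma adjusted p = 0.0434) was lost under 9. Of the 3 falls, 2 held under all 13 settings, and that of MAPK11 was lost under 3. HELLS, a chromatin remodeller, had the largest fall, to 0.654 ± 0.185 TPM with BMH-21, against 2.62 ± 0.944 TPM in controls (limma adjusted p = 0.00563). HELLS reached a mean of 1 TPM through its control values alone. DPPA4, an activator of the mouse counterpart of DUX4, was listed at 0 in all libraries, and DPPA2 stood at 0.12 TPM or less in each.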

How the data were processed

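RNA of 6 A375 libraries was measured, 3 given BMH-21 and 3 controls, grouped by their treatment labels. The deposited values are TPM per gene symbol. Per the submitters' processing notes the authors used STAR and Salmon with GRCh38, with versions, settings and annotation not given. Per the labels' protocols ribosomal RNA was removed with Ribo-Zero, while the molecule is labelled as polyadenylated RNA. No column was left unmapped. Values were analysed as log2(TPM + 1), which understates changes of low genes. Genes with a mean of at least 1 TPM were fitted with limma 3.58.1 in R 4.3.3 (trend, two-sided, Benjamini-Hochberg) and called at an adjusted p under 0.05. The fit was tested on simulated data.

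Members and lists were chosen with earlier results of these data known. Named are all members, each list's largest called rise and fall and highest gene, the nearest genes by position, and the 5 genes nearest to ZSCAN4. For the activators, the largest rise and the highest gene are not reported here. Further genes were named after their values were seen, to describe a group. Positions, neighbours and promoters are from RefSeq (GRCh38.p14), transcripts from GENCODE 29, which may differ from the authors' annotation. Alternatives were a pseudocount of 0.1, other filters and scalings, a replicate block and libraries left out.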

Additional observations from a re-analysis of the deposited data

How the results depend on the processing

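Over 99 recomputed member differences none reversed, and 89 moved by less than the spread between replicates. Members listed at 0 in every control could not reverse under any setting. For members whose groups did not overlap, leaving libraries out could not reverse the difference either. The replicate block leaves a difference unchanged by construction. No support is therefore drawn from the lack of reversals. Of the 10 differences that moved, 9 did so with a pseudocount of 0.1, which by construction enlarges changes of low genes. The last was CCNA1 with quantile normalization, at 0.72, against 0.89. The median member difference was 0.58, and 1.19 with that pseudocount and between 0.54 and 0.65 with single libraries left out. DUXA had a difference of 0 wherever BMH-21 replicate 2 was left out. The count of called genes was 4519, and between 2796 and 4809 with single libraries left out, lowest without BMH-21 replicate 1 and next without BMH-21 replicate 3 (2885). The share of calls that were higher was 64.4%, against 44.8% after median-of-ratios scaling and 51.3% after quantile normalization. With these scalings the median of all tested genes was 0.02 and 0.06, against 0.19.

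Silencing factors that rose numbered 4, and 1 with no filter on low values, 2 with a mean of at least 0.1 TPM, 2 with median-of-ratios scaling and between 1 and 5 with single libraries left out (1 without BMH-21 replicate 1 or 3, 2 without control replicate 2). Those that fell numbered between 10 and 14 under all alternatives. Activators that rose numbered 2, and 0 with no filter, 1 with a mean of at least 0.1 TPM, 0 after median-of-ratios scaling, 1 after quantile normalization and between 0 and 5 with single libraries left out (0 without BMH-21 replicate 1 or 3 or control replicate 3, 1 without BMH-21 replicate 2, 5 without control replicate 1). Activators that fell numbered 3, 5 without both libraries numbered 2, and between 2 and 4 with single libraries left out. The cause of these changes in count was not tested. Replicate numbers did not pair the libraries: deviations of same-numbered libraries correlated at -0.04, -0.34 and -0.08 over tested genes, and no BMH-21 library correlated best with the control of its own number. With the replicate block 3223 genes were called, and 0 activators and 3 silencing factors rose. Depth limits LEUTX, TPRX1, ZNF280A and DUXA most, since their values lie near the low end of TPM.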
